A study of Mus musculus with 18 samples.

Results

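The regions described here are places in mouse transcripts where miRNAs of the miR-200 family were found ligated to RNA in 3 separate pools of cultured keratinocytes. Targets of the 5 family members (miR-141, miR-429 and miR-200a to miR-200c) were taken from the set 1 control, set 2 uninduced and set 2 induced pools, mitochondrial targets were left out, and overlapping targets on 1 strand were joined into a site. A site was kept where each of these pools held at least 1 chimera, a chimera being a distinct combination of position, strand and miRNA in a pool. This left 592 of 35869 sites (1.65%), against 3064 sites found in 2 pools and 32213 found in 1. The 592 sites held 8944 of the 56848 miR-200 chimeras (15.7%). The chimera counts of the 3 pools chose the sites, so these counts are given as a description.

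CLEAR-CLIP joins a miRNA to the RNA it sits on within precipitated Argonaute 2, so a chimeric read names both. Set 1 held 6 libraries of control keratinocytes carrying K14-Cre only and 3 of miR-200 double knockout (DKO) keratinocytes. Set 2 held 3 libraries of miR-200 inducible keratinocytes that were not induced, 3 of DKO keratinocytes and 3 of inducible keratinocytes given 3 ug/ml doxycycline for 24 hours. No library had doxycycline without the inducible construct, and the labels used here name neither the promoter of the construct nor the family members it carries. Cells were grown in low-calcium medium, crosslinked with 300 mJ/cm2 of light at 254 nm and lysed, with 1 dish for each library. In triplets of counts below, the set 1 control comes first, the uninduced pool second and the induced pool last.

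The libraries of each group are pooled in the deposited data, so each group is 1 sample, no test was made between groups, and every interval below is a 95% interval that covers counting error only. The pools held 115950 chimeras (set 1 control), 36938 (set 1 DKO), 251269 (uninduced), 174921 (set 2 DKO) and 335717 (induced) outside the mitochondrial genome. Pools of a set were sequenced in 1 lane, and some reads recur in another pool of the lane, identical in target, miRNA and barcode; 565 of the 592 sites kept all 3 pools without them. Of 12 keratinocyte markers, 10 held a miR-200 site and 3 (Perp, Krt5 and 1 on chromosome 18) a site found in all 3 pools, against 1 and 0 of 8 fibroblast markers, 1 and 0 of 6 melanocyte markers, 0 of 6 immune markers, and 1 of 5 endothelial markers (Kdr, with 4 chimeras).

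The miR-200 family keeps epithelial cells epithelial, largely by repressing the transcription factors Zeb1 and Zeb2, and it is abundant in epidermis. Its members come from 2 gene clusters, miR-200b, miR-200a and miR-429 in the first and miR-200c and miR-141 in the second. A miRNA finds its targets mainly through its seed, bases 2 to 8 from its 5′ end, and the family has 2 seeds that differ by a single base. The sequences below are from RefSeq (GRCm38.p6) and are shown because the sites separate by seed; the seed is in capitals. AAUACUG is the seed of miR-200b, miR-429 and miR-200c, and AACACUG that of miR-141 and miR-200a.

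miR-200b-3p: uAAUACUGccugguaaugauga
miR-200c-3p: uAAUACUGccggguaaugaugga
miR-429-3p: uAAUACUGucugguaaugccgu
miR-200a-3p: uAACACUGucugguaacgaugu
miR-141-3p: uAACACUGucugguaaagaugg

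Counted from 1 at the 5′ end, the seeds of miR-200b and miR-200a differ by U4C. Members of 1 seed also differ from each other outside it. miR-200b and miR-200c differ by U11G and A22G and in length (22 and 23 bases), and miR-200a and miR-141 by C17A and U22G.  Which member a chimera is named after therefore rests on a few bases.

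The sites were a small part of each pool's miR-200 targets and a larger part in the shallowest pool. They held 1157 of 4758 miR-200 chimeras of the set 1 control (24.3%, 23.1 to 25.6), 2959 of 18652 of the uninduced pool (15.9%, 15.3 to 16.4) and 4828 of 33438 of the induced pool (14.4%, 14.1 to 14.8). Requiring the shallow set 1 control decided most memberships. Of the sites found in 2 pools, 2608 lacked only the set 1 control, 312 only the uninduced and 144 only the induced pool. Just inside the rule, 54 sites had 1 chimera in each pool, among them the site in Pkp1, a desmosomal gene, and 338 had a single set 1 chimera. Just outside it, 41 sites with 20 or more chimeras had none in set 1, among them Zfc3h1 (47 chimeras), Kmt2a (41) and Rbms1 (36), with sites on chromosome 18 not named. A site is 21 to 718 bases wide, with a median of 68, and 115 sites held 20 or more chimeras.

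The site with most chimeras (430) lay in structured RNA. Among sites in a single named gene, the deepest lay in genes of lipid metabolism, silencing, tRNA charging and the cell surface. In the desaturase gene Scd2 (chromosome 19, 44303236 to 44303357), there were 12, 39 and 95 chimeras. These are 2.52, 2.09 and 2.84 chimeras per 1000 miR-200 chimeras of the pool. Vldlr, a lipoprotein receptor (chromosome 19, 27249355 to 27249439), had 19, 34 and 66, or 3.99, 1.82 and 1.97 per 1000. The site stood highest in set 1. Tnrc6a, whose protein binds Argonaute and carries out silencing (chromosome 7, 123194279 to 123194363), had 11, 40 and 51, or 2.31, 2.15 and 1.53 per 1000. Gars encodes the enzyme that charges glycine tRNA (chromosome 6, 55065447 to 55065524). It had 4, 26 and 59 chimeras, with the lowest share in set 1 (0.841 per 1000) and the highest in the induced pool (1.76). Thrombomodulin, Thbd, an anticoagulant receptor of the cell surface (chromosome 2, 148405286 to 148405506), had 15, 20 and 49, or 3.15, 1.07 and 1.47 per 1000.

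**Figure D1:**
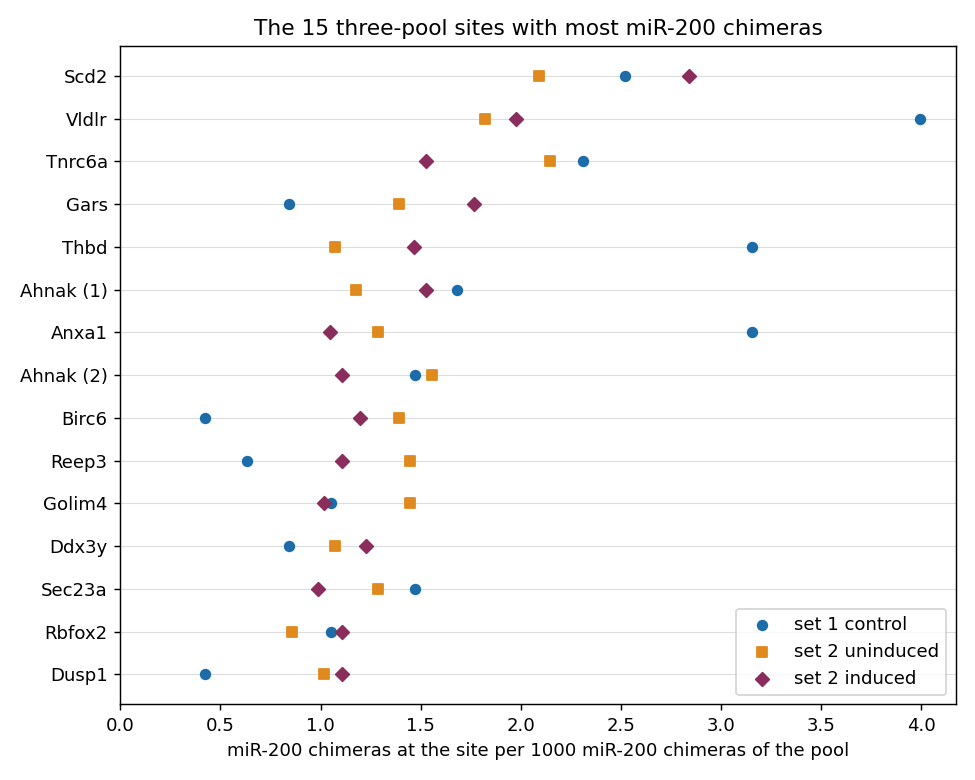
Chimeras of the miR-200 family per 1000 miR-200 chimeras of the pool (x axis) at the 15 sites with most chimeras among those in a single named gene (y axis, deepest at the top), 1 point per pool; the 2 sites in Ahnak carry numbers by depth. Vldlr, Thbd and Anxa1 lie furthest right in the set 1 control (3.99, 3.15 and 3.15), while Birc6 and Dusp1 (0.420 each) lie furthest left.

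Of the other leading sites, several had few set 1 chimeras. Usp25, a deubiquitinase gene, had 1, 22 and 29. Birc6, an inhibitor of apoptosis, had 2, 26 and 40. Anxa1, an annexin that binds membranes, went the other way with 15, 24 and 35, or 3.15, 1.29 and 1.05 per 1000. Dlc1, which restrains the actin skeleton, differed between the sets: its site near the 3′ end of the gene (chromosome 8, 36568747 to 36568819) had 19 chimeras in the set 1 control, as many as Vldlr, but 7 among uninduced and 9 among induced cells. That is 3.99 per 1000 against 0.375 and 0.269. Sets differ in cells and in sequencing run, which cannot be told apart here, and in bulk samples fewer cells with a transcript and less of it per cell cannot be told apart either.

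In genes, the sites crowded at the 3′ end. Of the 592 sites, 517 lay in protein-coding genes, 32 in long noncoding RNAs, 13 in miRNA genes, 9 in structured RNA such as ribosomal RNA, 12 in no gene of the table, 6 opposite to a gene and 3 in pseudogenes or other genes. The RefSeq table used here has spans and no exons, so coding and untranslated parts were not analysed here; a gene known to lie on the other strand was left out, and 154 sites lay in a gene with no strand given. Of the 513 sites in a single protein-coding gene, 326 (63.5%, 59.2 to 67.7) lay in the last 10% of the gene's span, against 42.5% (40.6 to 44.4) of sites found in 2 pools and 20.3% (19.9 to 20.8) of those found in 1. Within 5000 bases of the 3′ end were 381 sites (74.3%, against 48.4% and 23.6%), and in the first 10% were 11 (2.14%, against 6.09% and 10.4%). Depth goes with the number of pools: among sites with 5 or more chimeras the last 10% held 66.0% (61.2 to 70.6) of those found in all 3 pools and 57.0% (53.1 to 60.9) of the others. This minimum did not make depth equal, since sites with 5 or more chimeras had a median of 11 in all 3 pools and 7 otherwise.

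**Figure D2:**
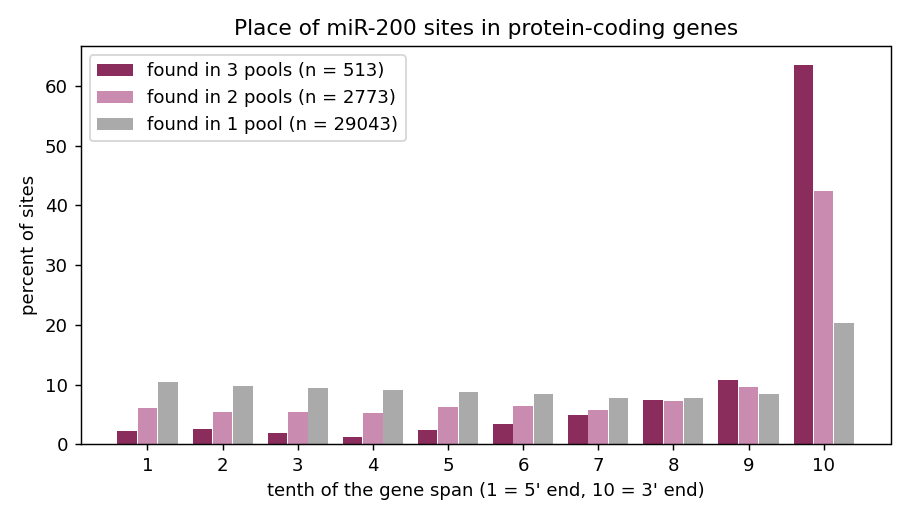
Percent of sites (y axis) by position in the gene span, in steps of 10% from the 5′ to the 3′ end, for sites in a single protein-coding gene found in 3, 2 or 1 pools. The last step holds 63.5%, 42.5% and 20.3% of them, and the first 2.14%, 6.09% and 10.4%.

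Named sites show both the rule and its exceptions. The site in Rbfox2, a splicing factor, lay 214 bases from the end of the gene, that in Epha2, an ephrin receptor, 148, and that in Jag1, a Notch ligand, 86. The Dusp1 site, in the gene of a phosphatase that turns off MAP kinases, lay at 88.7% of a short gene, 325 bases from its end. Other deep sites lay far inside: the 2 leading Ahnak sites at 17.7% and 33.3% of the span of this giant scaffold gene, 72179 and 58442 bases from its end, and Usp25 at 59.8%. Vmp1, an autophagy gene, had its site at 19.1%, and Marchf6, a ubiquitin ligase of the endoplasmic reticulum, at 28.4%. These values place a site in the span, introns included.

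Most sites took chimeras of 1 seed and hardly any of the other. Among the 472 sites with at least 5 chimeras of the 3p arms, 257 (54.4%, 49.8 to 59.0) had 90% or more with the AAUACUG seed, and 119 (25.2%, 21.4 to 29.4) had 10% or fewer, so belonged to the AACACUG seed. Of these, 223 and 106 had the 1 seed alone. The remaining 96 (20.3%, 16.8 to 24.3) took both. Of the 741 sites of that depth found in 1 or 2 pools, 63.8% (60.3 to 67.3) had the AAUACUG seed, 18.1% (15.4 to 21.1) the AACACUG seed and 18.1% both. The rule may bear on this difference, since the set 1 control decided most memberships, but this was not tested. At sites of fewer pools the AAUACUG seed made up 57.0% of the 3p-arm chimeras of the set 1 control, 60.1% of uninduced and 67.8% of induced ones. Counted by chimeras, its share was higher at the sites found in all 3 pools, with 64.1%, 69.3% and 72.9%. Among the sites found in all 3 pools, the share of the AACACUG seed was lower at greater depth (21.3% with at least 10 and 18.3% with at least 20 chimeras). That of the AAUACUG seed was 58.2% and 57.4%.

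**Figure D3:**
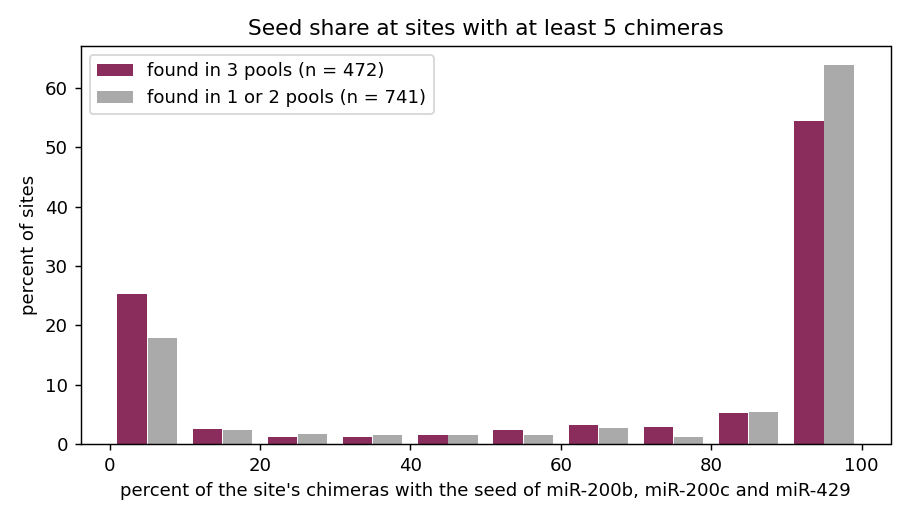
Percent of sites (y axis) by the share of a site's chimeras that carry the AAUACUG seed (x axis, in steps of 10%), for sites with at least 5 chimeras found in 3 pools (472) or in 1 or 2 (741). Both sets of bars stand at the ends: of the sites found in 3 pools 25.2% are in the lowest and 54.4% in the highest step.

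Leading sites of the AACACUG seed lay in Thbd, in Perp, in Atp5g3, a subunit of mitochondrial ATP synthase, in Mast4, a kinase gene, and in Epha2. The Atp5g3 site (chromosome 2, 73909862 to 73909935) had 3, 16 and 33 chimeras; 42 were of miR-141, 9 of miR-200a and 1 of miR-200b. The Mast4 site had 35 of miR-141, 11 of miR-200a and 0 of the other seed. Sec23a, Reep3, Golim4, Rbfox2, Dusp1 and Birc6, by contrast, had 0 chimeras of miR-200a and miR-141 among 58 to 68. Golim4 and Reep3 encode membrane proteins of the Golgi and of the endoplasmic reticulum, and Sec23a a coat protein of the vesicles between them.

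Sites with both seeds differed in kind. Of the 96, 49 lay in protein-coding genes, 23 in long noncoding RNAs and 8 in structured RNA, against 246, 1 and 0 of the 257 sites of the AAUACUG seed. They were wider (median 95 bases against 73 and 68), and their median number of chimeras of other miRNAs over all 5 pools was 67 against 4 and 6. At 39 of the 96 the midpoints of the 2 seeds' targets lay more than 20 bases apart, and at 38 within 10. In Hipk1, a kinase gene (chromosome 3, 103742612 to 103742691), 36 chimeras had the AACACUG seed and 18 the other, with midpoints 29.8 bases apart. In Mbnl1, a splicing factor, the counts were 22 and 24 and the midpoints 10 bases apart.

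Members of 1 seed did not divide evenly over its sites. Over all miR-200 sites miR-200c was 60.3% of the chimeras with its seed in the set 1 control, 65.8% among uninduced and 45.0% among induced cells, and each site was set against the share that its own mix of pools would give. Of 65 sites with at least 20 such chimeras, the share of miR-200c ran from 22.7% to 100%, with a median of 47.2%. Its interval lay above the share given by the pools at 14 and below it at 14; over all 94 miR-200 sites of that seed and depth, those found in fewer pools included, 18.1% lay above and 17.0% below. At each of the 14 high sites, and at 13 of the 14 low ones, the uninduced and the induced pool stood on the same side of their own shares. The sites were called from these same pools summed, so this is a description and no separate support. No adjustment was made for how many sites were compared.

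**Figure D4:**
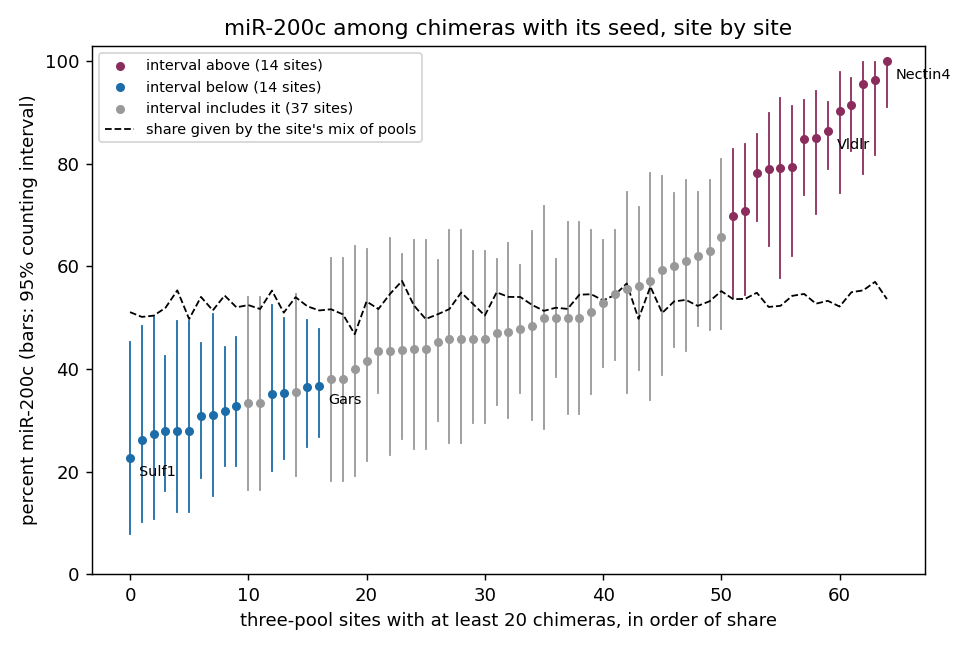
Percent of miR-200c among chimeras with the AAUACUG seed (y axis) at the 65 sites with at least 20 such chimeras, in order of the share (x axis); bars are 95% counting intervals and the dashed line is the share given by the site's mix of pools. The sites run from 22.7% (Sulf1) to 100% (Nectin4), with 14 intervals above and 14 below the line.

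Nectin4, a gene of cell adhesion (chromosome 1, 171387166 to 171387267), took miR-200c alone, in 5 of 5 set 1, 13 of 13 uninduced and 22 of 22 induced chimeras (100%, 91.2 to 100). It was chosen after its values were seen, as were Gclc and Sulf1. The smaller of the 2 leading Ahnak sites (9004711 to 9004800) had 7 of 7, 29 of 29 and 29 of 35 (91.5%, 82.5 to 96.8), while the larger (9018398 to 9018587) had 3 of 7, 10 of 21 and 26 of 50 (50.0%, 38.5 to 61.5). The intervals of these 2 sites of 1 gene do not overlap. Vldlr had 16 of 18, 32 of 34 and 54 of 66 (86.4%, 78.9 to 92.1), against 53.3% by its pools. Golim4 (84.8%), the larger Tnrc6a site (78.2%), Cln8 (96.4%), an endoplasmic reticulum gene, and Gclc (95.7%), of glutathione synthesis, were high too.

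At the low sites named here miR-200b and miR-429 together outnumbered miR-200c. Anxa1 had 22 miR-200c chimeras of 69 (31.9%, 21.2 to 44.2, against 54.3% by its pools), with 28 of miR-200b and 19 of miR-429. Gars had 32 of 87 (36.8%, 26.7 to 47.8), Rbfox2 19 of 58 (32.8%, 21.0 to 46.3) and Usp25 16 of 52 (30.8%, 18.7 to 45.1). Sulf1, a sulfatase of heparan sulfate, was lowest with 5 of 22 (22.7%, 7.82 to 45.4). At 21 sites of the other seed, miR-141 ran from 21.7% to 100% with a median of 79.2%; 3 intervals lay below the share given by the pools and 0 above, against 12.0% and 0% of all 25 such miR-200 sites. Those 3 were Irf2bp2, a corepressor gene (5 of 23, 21.7%, 7.46 to 43.7), Tnpo1, of nuclear import (17 of 29, 58.6%), and Epha2 (25 of 36, 69.4%). Irf2bp2 and Tnpo1 were chosen after their values were seen.

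Over all sites of a seed, the induced pool had larger shares of miR-200b, miR-429 and miR-200a than the uninduced pool. At the 257 sites of their seed, miR-200b was 25.5% (23.4 to 27.8) of uninduced and 37.5% (35.7 to 39.4) of induced chimeras, miR-429 9.69% and 15.1%, and miR-200c 64.8% and 47.4%. At the 119 sites of the other seed miR-200a was 13.7% and 24.6%. Sites found in 1 or 2 pools stood close by, with miR-200c at 65.9% and 44.5%. In the set 1 control the sites had 28.6% miR-200b, 58.1% miR-200c and 13.3% miR-429.

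Some genes held several of the sites. There were 446 protein-coding genes with a site, of 6879 with any miR-200 site (6.48%); 394 had 1 site, 40 had 2 and 12 had 3 or more. In the 52 genes with several, the gap between neighbouring sites had a median of 503 bases, and 33 of 67 gaps were 500 bases or less. Of 32 genes with at least 2 sites that each belonged to a single seed, 10 had sites of both seeds. Ahnak and Thbd and the stress gene Trp53inp1 each had 4.

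In Perp, which encodes a desmosomal membrane protein, 3 sites lay within the last 10% of the gene, with gaps of 304 and 299 bases. The first (chromosome 10, 18855978 to 18856071) had 4, 23 and 25 chimeras, 51 of them with the AACACUG seed, and the second (18856376 to 18856502) had 3, 5 and 24, all 32 with that seed. The third (18856802 to 18856841) had 1, 1 and 2, all with the other seed. Without recurring reads the third site had 1, 0 and 1, so it was no longer found in all 3 pools. Sec23a had 3 sites with 19, 6 and 64 chimeras, and Trp53inp1 had 4 with 5, 13, 9 and 17; 1 chimera, in Trp53inp1, had the AACACUG seed. Amotl2, an angiomotin that holds back growth signals, had 2 sites 36 bases apart with 22 and 41 chimeras, and Msn, which ties actin to the membrane, 2 sites 75 bases apart with 27 and 31. Marcks, another actin-binding membrane protein, had 3 sites of 20, 5 and 18 chimeras with both seeds at each.

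Genes of several known programmes held sites, in lists chosen with earlier results of these data known. Beside the 6.48% over all protein-coding genes with a miR-200 site, 10 of 34 commonly cited miR-200 targets held a site of all 3 pools (29.4%), 6 of 18 genes of small RNA machinery (33.3%), 7 of 20 of secretion and lipids (35%), 7 of 29 of TGF-beta, Notch, EGF and Wnt signalling (24.1%), 5 of 21 of polarity and actin (23.8%), 4 of 22 of RNA binding and chromatin (18.2%) and 5 of 38 of desmosomes and adhesion (13.2%). The members of the silencing machinery were Tnrc6a, Ago2 (24 chimeras), Dgcr8 (14), Ago3 (8), Cnot6 (5) and Dicer1 (4). Dgcr8 and Dicer1 make miRNAs and Cnot6 removes poly(A) tails. The AAUACUG seed made up 101 of 102 and 36 of 36 chimeras at the 2 Tnrc6a sites, 24 of 24 at the leading Ago2 site and 13 of 14 at Dgcr8.

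Among signalling genes, the growth factor Nrg1 (chromosome 8, 31817799 to 31817864) had 2, 12 and 17 chimeras. The receptor Egfr had 4, 3 and 18 (chromosome 11, 16912510 to 16912736), on a site 227 bases wide whose targets of the 2 seeds lay 121 bases apart. Jag1 had 2, 4 and 10 at its leading site, all 16 with the AACACUG seed; its other 2 sites had 4 and 5 chimeras, all of that seed too. Notch2, a receptor for Jag1, had 7 chimeras, all with the other seed. Of the cited targets, the RNA-binding gene Qk had 1, 17 and 27, and Vegfa, a growth factor of vessels, 1, 8 and 9.

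The long noncoding RNAs Neat1, the scaffold of paraspeckles, and Malat1, of nuclear speckles, held 15 and 12 of the sites, more than any protein-coding gene. These were 15 of 158 and 12 of 42 miR-200 sites of any pool there, beside 4 of 61 in Ahnak and 4 of 12 in Thbd. The Neat1 sites had 27, 94 and 167 chimeras, and the Malat1 sites 19, 45 and 79. Of the Neat1 sites 14 took both seeds and 1 was under the minimum; of the Malat1 sites 8 took both and 1 took each seed. Other miRNAs were many there: a Neat1 site had 48 to 636 of their chimeras over 5 pools (median 147), and miR-200 was 4.17% to 46.2% of a site's chimeras over the 3 pools (median 10.0%). At Malat1 it was 3.38% to 28% (median 11.7%).

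The sites were chosen for miR-200 chimeras, so the share of miR-200 among all chimeras at a site is a description. Outside structured RNA, miR-200 made up at least 50% of the chimeras of the 3 pools at 394 of 583 sites, with a median of 70.0%, and under 10% at 31. Over all 592 sites the share was at least 50% at 66.5%, against 77.4% of sites found in 2 pools and 86.9% of those found in 1; with 5 or more chimeras it was 67.2% against 73.8% of the others. No chimera of another miRNA was found in any of the 5 pools at 86 sites, and 1 to 1518 were found at the other 497, with 354 miRNA names. Beside its 68 miR-200 chimeras Birc6 had 0 of any other miRNA, which allows 3 counts or 4.41% of the miR-200 number; Daam1, a formin of the actin skeleton, had 23 and 0 (13.0%) and Dmwd 21 and 0 (14.3%). Golim4 had 66 and 4, Usp25 52 and 4, Tnrc6a at its larger site 102 and 10 and Vldlr 119 and 32, other miRNAs counted over 5 pools.

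**Figure D5:**
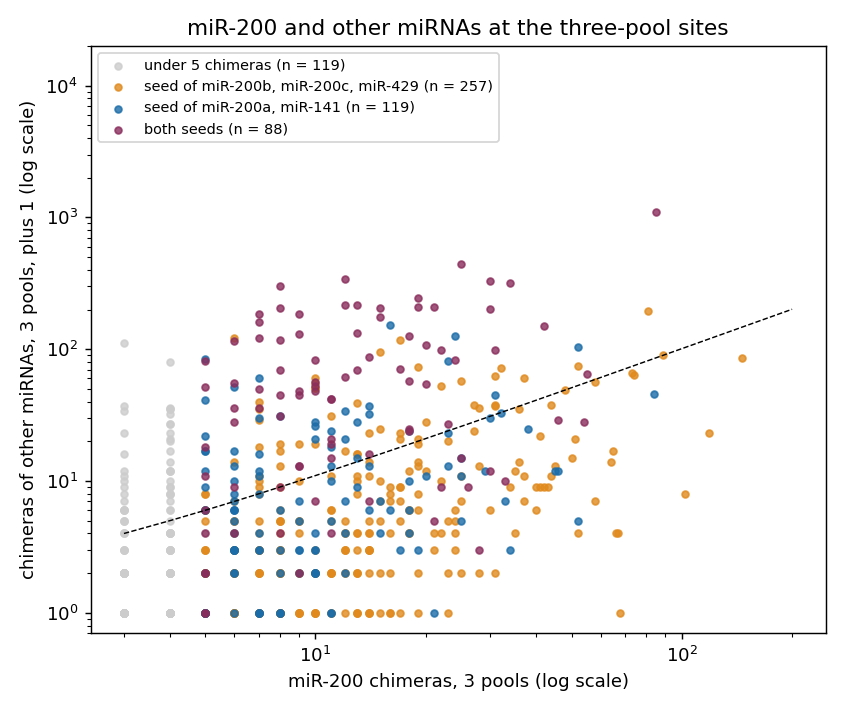
Chimeras of other miRNAs plus 1 (y axis, log scale) against miR-200 chimeras (x axis, log scale) at the 583 sites outside structured RNA, both summed over the 3 pools of the rule, coloured by seed; the dashed line marks equal numbers. Of the sites 88 have both seeds, and 394 lie on or below the line.

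Where other miRNAs were present, some sites had a partner that led. miR-182-5p gave 74 of the 101 other chimeras at Arf4, a small GTPase of the Golgi, 44 of 66 at the larger Msn site and 41 of 100 at Anxa1. miR-31-5p, an abundant epidermal miRNA, gave 102 of 226 at the larger Ahnak site, and miR-183-5p 28 of 35 at Mbnl1. At Dusp1 miR-26a-5p gave 27 of 60. The mature sequences of the first and of the last of these, with their seeds in capitals, show that neither shares the seed of the family.

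miR-182-5p: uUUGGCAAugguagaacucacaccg
miR-26a-5p: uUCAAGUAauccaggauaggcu

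For 71 other miRNAs with at least 50 chimeras at the sites outside structured RNA, the share of other miRNAs' chimeras there was set against that elsewhere. Elsewhere means all other targets outside the mitochondrial genome, with those in structured RNA included. By intervals that exclude 1, 39 of the 71 (54.9%) had a larger share at the sites and 10 (14.1%) a smaller one. In 5 the share was at least 2 times that elsewhere: miR-182-5p (2.12, 1.94 to 2.31), miR-15a-5p (2.34), miR-31-3p (2.37), miR-221-3p (2.11) and miR-6409, whose 50 chimeras at the sites all lay at 1 Neat1 site. Without its leading site each of the 5 was below 2, with miR-182-5p at 1.84, miR-15a-5p at 1.59 and miR-31-3p at 1.24. Others of the 39 also changed without their leading site: miR-17-5p from 1.40 to 1.09, let-7f-5p from 1.15 to 0.879 and miR-16-5p from 1.62 to 1.42. The intervals treat chimeras at 1 site as independent, and none were computed without the leading site. The count of 39 is therefore a description. Grouped by seed, miR-15 and miR-16 stood at 1.83 (1.72 to 1.94) and let-7 at 1.27 (1.20 to 1.33), and miR-31-5p at 0.643 (0.606 to 0.681).

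In the DKO pools the sites kept few miR-200 chimeras. The set 1 DKO pool had 16, at 16 sites, and the set 2 DKO pool 131, at 99 sites; as shares of all chimeras these were 0.0434 (0.0247 to 0.0708) and 0.0636 (0.0530 to 0.0758) of the control of the set. Without reads that recur in the lane 3 and 12 were left, and the ratios were 0.00821 (0.00169 to 0.0241) and 0.00615 (0.00318 to 0.0108). The rule used the controls and asked nothing of the DKO pools, so low ratios at the sites were favoured in advance and are descriptions. Over all targets, recurring reads included, miR-200 gave 76 of 36938 chimeras in the set 1 DKO pool and 4758 of 115950 in its control. In set 2 it gave 728 of 174921 in the DKO pool and 18652 of 251269 in the uninduced pool. Scd2 had 0 in set 1 and 7 in set 2, of which 0 remained without recurring reads; of the 3 set 2 chimeras at Vldlr 2 remained. A count of 0 at a site allows up to 3 chimeras, which is 0.412% of the miR-200 chimeras of the set 2 DKO pool and 3.95% of the 76 in set 1. Of the miR-200 chimeras of the DKO pools, 21.1% (12.5 to 31.9) and 18% (15.3 to 21.0) were at these sites, against 24.3% and 15.9% in the controls. The ratios of 0.866 (0.493 to 1.41) and 1.13 (0.945 to 1.35) have intervals that include 1. These shares count the recurring reads, which gave all but 3 and 12 of the DKO chimeras at the sites. Nothing is therefore read from these 2 ratios.

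Other miRNAs stood on opposite sides of control in the DKO pools of the 2 sets. In set 1 the sites held 2.46% of the other miRNAs' chimeras in the DKO pool and 1.94% in control, a ratio of 1.27 (1.17 to 1.37), and in set 2 3.71% and 4.45%, a ratio of 0.833 (0.808 to 0.860). Without structured RNA the ratios were 1.18 (1.07 to 1.30) and 0.849 (0.813 to 0.886). By site, 7 of 29 with at least 20 such chimeras in set 1 were higher in DKO and 0 lower, where 21.4% and 1.02% of all 98 miR-200 sites tested were. In set 2, 11 of 105 were higher and 26 lower, where 8.84% and 22.3% of all 498 were. Both counts are near those of all miR-200 sites.

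Among the 7 sites higher in set 1, those in protein-coding genes were in Xiap, an inhibitor of caspases (19 chimeras in control and 23 in DKO, ratio 3.65, 1.90 to 7.09), and in the keratin gene Krt6a (15 and 13, 2.61, 1.15 to 5.89). In set 2 Xiap had 52 and 25 (0.642, 0.382 to 1.05) and Krt6a 54 and 48 (1.19, 0.788 to 1.78). Deep miR-200 sites that were lower in the set 2 DKO pool included Gars (39 and 6, 0.205, 0.0711 to 0.489), Thbd (17 and 3, 0.236), the smaller leading Ahnak site (25 and 5, 0.267) and Dusp1 (25 and 5, 0.267). Anxa1 was higher, with 22 and 30 (1.82, 1.02 to 3.31). These genes, Xiap and Krt6a were chosen after their values were seen. Xiap was led by miR-17-5p (72 chimeras) and Krt6a by miR-29a-3p (19).

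Induced and uninduced pools were set side by side by each site's share of the pool's miR-200 chimeras. Of 99 sites with at least 20 chimeras over both pools, 1 was higher and 2 were lower by intervals that exclude 1, where 1.43% and 3.57% of all 140 miR-200 sites were. As shares of all chimeras 13 were higher and 0 lower, where 10.7% and 0% of the 140 were; the rule used these pools, so nothing is read from the counts. The higher one was the second Perp site (5 uninduced and 24 induced chimeras, ratio 2.68, 1.00 to 8.98), beside the first with 23 and 25 (0.606, 0.330 to 1.12). The Egfr site had a ratio of 3.35 (0.977 to 17.7), Serinc1, of serine uptake into membranes, 2.42 (0.973 to 7.18), and Cln8 0.438 (0.180 to 1.04). Of all chimeras, those of miR-200 at the sites were 1.18% of the uninduced and 1.44% of the induced pool (1.22, 1.17 to 1.28), while miR-200 chimeras over all targets were 7.42% and 9.96% (1.34, 1.32 to 1.37). In the induced pool the sites' share of miR-200 chimeras was 0.910 (0.869 to 0.953) times that in the uninduced pool. The rule used both pools, so the miR-200 ratios at the sites, here and by seed below, are descriptions. By seed the ratio of shares of all chimeras was 1.32 (1.24 to 1.40) at the sites of the AAUACUG seed, 1.15 (1.03 to 1.29) at those of the AACACUG seed, and 1.14 (1.04 to 1.26) at those of both. Other miRNAs had 4.45% and 3.75% of their chimeras at the sites (0.842, 0.819 to 0.864; 0.919, 0.887 to 0.953, without structured RNA), with 7 of 135 sites higher and 19 lower, where 3.54% and 6.95% of all 734 were.

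A last small set lay on miRNA genes, where the ligated RNA was at most sites about as long as a mature miRNA. There were 13 such sites (2.20% of the 592, against 0.424% of sites found in 2 pools and 0.112% of those found in 1) with 133 chimeras. At 12 of the 13 the site covered a whole mature arm, and 11 were 30 bases wide or less. The sites in Mir200c and Mir141 were 63 and 85 bases wide, so they reached beyond the mature arm. There, 10 of 17 chimeras were of miR-200c-3p and 6 of 10 of miR-141-3p, the 3p arms of the same hairpins. The site in Mir23a (chromosome 8, 84208561 to 84208588) had 6, 7 and 9 chimeras and covered miR-23a-3p, that in Mirlet7b had 4, 3 and 5 and covered let-7b-5p, and that in Mir205 had 2, 1 and 1 and covered miR-205-5p. These partners, with their seeds in capitals, are shown because their whole length is the target.

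miR-23a-3p: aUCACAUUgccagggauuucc
let-7b-5p: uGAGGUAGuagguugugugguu
miR-205-5p: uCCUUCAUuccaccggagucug
miR-200b-5p: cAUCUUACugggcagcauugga

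The last sequence is the passenger arm of the family's own hairpin: the site in Mir200b covered miR-200b-5p with 1, 4 and 4 chimeras, all 9 of miR-200b-3p and 0 of any other miRNA. The sites in miRNA genes depended on reads with marked names, which have shorter targets. These were 29 of the 133 chimeras there (21.8%), against 0.861% over all the sites, and without them 4 of the 13 (Mirlet7e, Mir23b, Mir141 and Mir31) still had all 3 pools, against 563 of the 592.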

How the data were processed

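CLEAR-CLIP chimeras of 18 libraries were analysed. The submitters' processing notes name mm10 as the build and list bedtools, Novoalign and cutadapt; versions are not given in the sources used here. The deposited files are 5 pools without library names; each entry is 1 chimeric read with the position of its target, a barcode of 4 bases and a miRNA name. Starts count from 0 there and from 1 here.

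Chimeras are distinct combinations of position, strand and miRNA. Targets that share at least 1 base on a strand were joined. A site was given to the RefSeq gene (GRCm38.p6, the same build) that spans its midpoint, leaving out genes known to lie on the other strand. Shares have exact Clopper-Pearson intervals and ratios of shares conditional exact intervals; a site is called higher or lower where its interval excludes 1 and at least 20 chimeras were compared. The coverage of the ratio intervals was tested on simulated data. Python 3.11.15, numpy 2.4.6, pandas 2.3.3 and scipy 1.17.1 were used.

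The sites and lists were chosen with earlier results of these data known. Named sites are the 20 with most chimeras, the 5 with most per seed group, the 5 highest and 5 lowest ratios of induced over uninduced, the 5 with most other-miRNA chimeras and the 5 with the highest miR-200 share, the 5 genes with most sites and 3 sites per gene list; sites in structured RNA, in several genes or on chromosome 18 were counted and not named, beyond their gene's place in a list. Nectin4, Gclc, Sulf1, Irf2bp2, Tnpo1, Xiap, Krt6a, Amotl2, Marcks, Notch2, Vegfa, Pkp1, the smaller members of the small RNA list and the miRNA genes were chosen after their values were seen. Alternatives changed the counting, joining, count minimums, gene assignment and reads kept; those chosen after seeing the data are marked in the closing section. Results on some genes are not reported here.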

Additional observations from a re-analysis of the deposited data

Results flagged for a closer look

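The share of other miRNAs' chimeras at the sites went opposite ways in the DKO pools of the 2 sets, at 1.27 times control in set 1 and 0.833 times control in set 2. The difference between the sets was not tested, since each group is 1 pool. Without structured RNA the ratios were 1.18 and 0.849.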

How the results depend on the processing

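Of 80 recomputed values that answer a comparison, 43 stayed and 37 moved. Shares stayed if within the error of the main value, and counts if within 1.5 times. Ratios of other miRNAs between pools stayed if on the same side of 1 with an interval that excludes 1. Only these ratios could be called reversed, and 0 were. Requiring 2 or 3 chimeras in each pool left 198 and 85 sites. The sites' share of miR-200 chimeras was 26.41%, 18.78% and 17.24% (set 1 control, uninduced, induced) with every read counted; 14.99% and 13.46% (uninduced, induced) with each position counted once; and 14.61% and 13.47% without structured RNA. With 2 chimeras in each pool 68.9% lay in the last 10% of a gene. The AACACUG seed held 21.28% and 18.26% of sites with at least 10 and 20 chimeras, and both seeds 24.35% with at least 20. Other miRNAs' shares at the sites (set 1 control, set 1 DKO, uninduced, set 2 DKO, induced) were 2.296%, 2.701%, 5.945%, 4.614% and 4.799% with every read; 1.759%, 2.189%, 4.224%, 3.492% and 3.507% with 15 bases of overlap; and 1.408%, 1.663%, 2.37%, 2.012% and 2.178% without structured RNA. Induced over uninduced, 2 sites were higher and 6 lower with at least 10 chimeras, 0 and 1 with at least 50, and 13 and 0 as shares of all chimeras. Without recurring reads the DKO pools kept 3 and 12 miR-200 chimeras. With every read, 22 sites lay above the miR-200c share of their pools. The cause of these shifts was not tested. Of 52 named sites, 9 moved with every read and 1 without recurring reads. The alternatives for miR-200c and for other miRNAs without structured RNA were chosen after seeing the data. No paired analysis was possible because the deposited files pool the libraries of a group and carry no replicate; for the same reason no replicate could be left out. Seed matches in genome sequence were not run.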
